A study of Mus musculus with 143 samples.

Results

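Untreated zQ175 mice were compared with untreated wild-type (WT) mice at 6 months of age, in RNA of the striatum. The comparison took the 8 libraries whose labels give the group 2[4]6_zQ175_Untreated_STR and the 8 of 2[4]6_WT_Untreated_STR, 16 of the 143 libraries of the series, and columns were matched to animals by library name. The zQ175 mouse models Huntington's disease by a knock-in: its endogenous Htt gene holds a lengthened CAG tract. Each group held 4 females and 4 males, all collected at 6 months without any small interfering RNA, although their labels also carry an age at treatment of 2 months. The WT animals carry no mutant allele by their genotype label, and the labels name no manipulation that both groups share. No source used here gives strain, litter or the number of mutant alleles per zQ175 animal. The 16 animals belong to a larger set of 48 collected at 6 months, in which further animals of both genotypes received a non-targeting siRNA (NTC) or HTT-10150, an siRNA against Htt, at 2 months.

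Most neurons of the striatum are medium spiny neurons, inhibitory projection cells that integrate cortical glutamate with dopamine from the midbrain. Neurons of the indirect pathway carry the D2 dopamine receptor and make enkephalin, and those of the direct pathway carry the D1 receptor and make dynorphin and substance P. In both, dopamine and adenosine act through cyclic AMP, and medium spiny neurons are the cells most affected in Huntington's disease. Their identity genes are known to fall in the striatum of mice and people that carry the mutant allele, and developmental genes that Polycomb complexes keep silent in adult neurons are known to become active.

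The 16 libraries held 16.39 M to 29.19 M counts, with a median of 20.4 M in zQ175 and 20 M in WT. The tissue label was checked on transcript levels per length: Ppp1r1b, which marks medium spiny neurons, stood at 1678 ± 161 TPM in zQ175 and 2956 ± 342 TPM in WT, while the cortical marker Slc17a7 stood at 50.1 ± 29.9 TPM in zQ175 and 76.1 ± 53.6 TPM in WT and the thalamic marker Slc17a6 at 1.52 ± 0.44 TPM in zQ175 and 1.41 ± 0.57 TPM in WT (SD, n = 8 each). Genes of the choroid plexus and ependyma, 18 of 18 of them detected, set 3 libraries apart. Their summed level was 1513 CPM in zQ175 male replicate 1, 4452 CPM in WT female replicate 2 and 1226 CPM in WT male replicate 4, with medians of 416 CPM in zQ175 and 417 CPM in WT. The slope of gene level on GC content was fitted in each library together with a slope on exon length. It is given as the distance from the mean of the 48 libraries collected at 6 months, in units of their SD. A negative value is thus a slope below that mean. On this scale the GC slope ran from -1.52 to 0.51 in zQ175 and from -0.49 to 1.27 in WT (exact two-sided permutation p = 0.0141). It followed the first number of the library name, whose meaning the labels do not give: in the lower-numbered libraries the slope ran from -1.52 to -1.1 in 4 zQ175 animals and from -0.49 to 0.04 in 3 WT animals, and in the higher-numbered from -0.21 to 0.51 in 4 zQ175 animals and from 0.59 to 1.27 in 5 WT animals.

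Levels below are CPM, counts scaled to the size of the library and by TMM, an edgeR factor that evens out library composition, and are given as the lowest, median and highest of the 8 animals of a group. Fold changes are log2 values of zQ175 over WT with ± SE, and "fell" or "rose" marks genes with a Benjamini-Hochberg adjusted p under 0.05 in edgeR's quasi-likelihood test over all genes tested. In whole tissue, fewer cells of a type and less RNA per cell cannot be told apart.

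Across the transcriptome, 15716 genes were tested. Of these, 2412 (15.3%) rose and 2710 (17.2%) fell in zQ175. The changes were mostly small: the median was 0.22 among genes that rose and -0.27 among those that fell, and 1743 and 1620 of them changed by less than 1.25-fold. Only 7 genes rose and 16 fell by more than 4-fold. Within the lower-numbered libraries 1103 genes rose and 1646 fell, and within the higher-numbered 1786 rose and 2154 fell. The genotype effect differed between these ranges for 1 gene. No untreated zQ175 animal shared the first number of its library name with an untreated WT animal. The genotypes were therefore never compared within the same number, and the part of whatever it marks was not tested. With each library's length and GC slopes as terms, 2716 genes rose and 2926 fell. The groups did not overlap for 476 genes that were higher and 911 that were lower in zQ175. The median over all genes tested was 0.004, against which the medians of gene lists below are to be read.

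**Figure D1:**
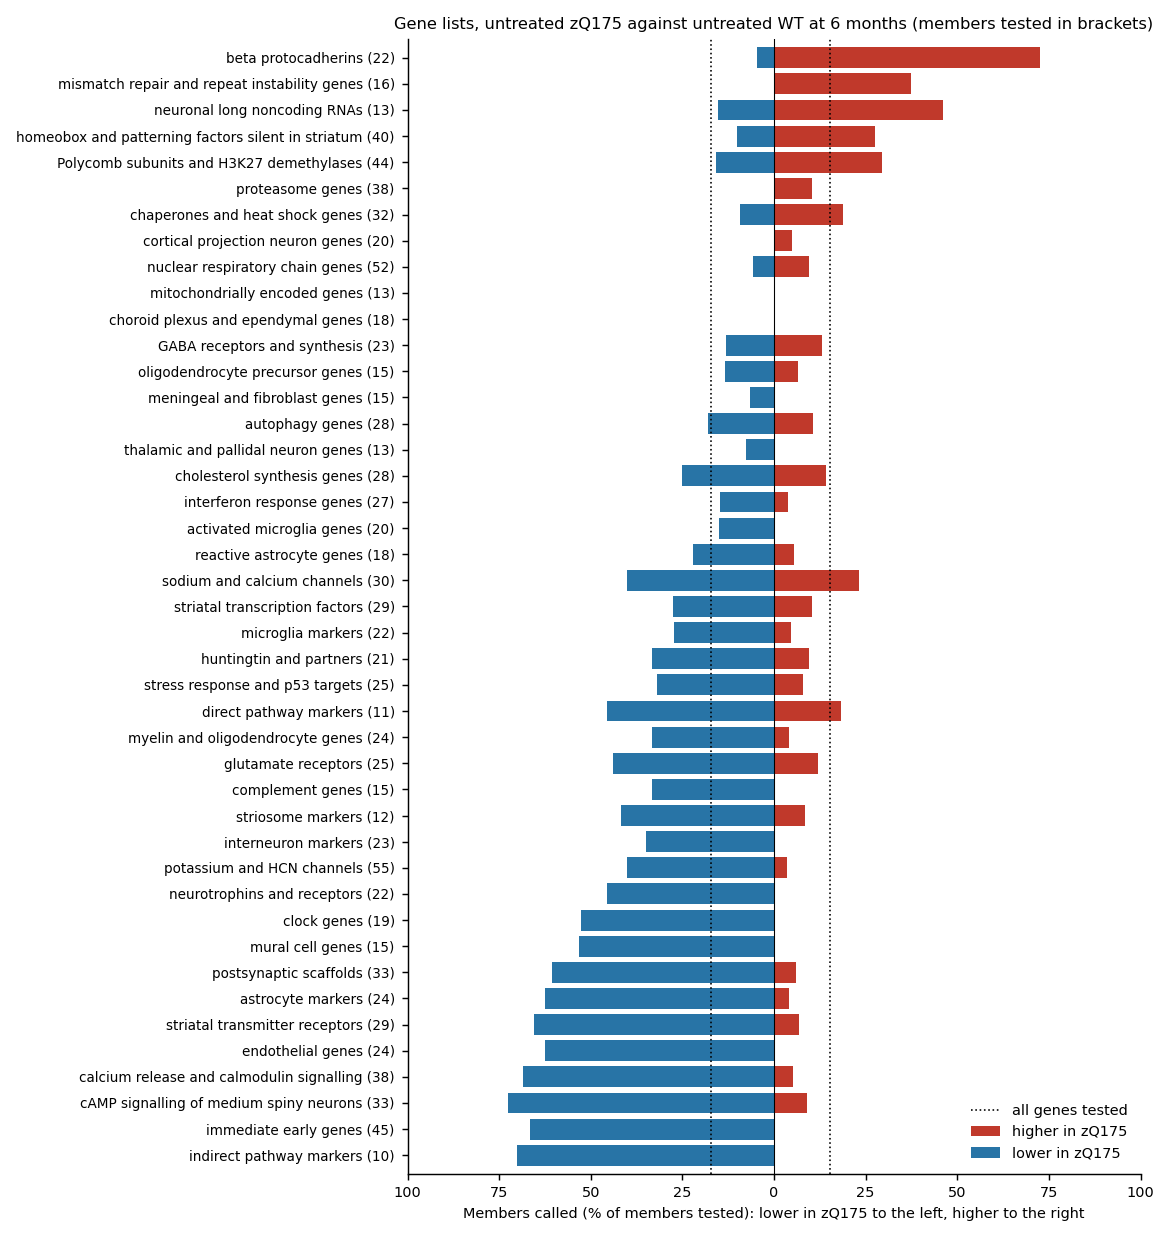
Share of the tested members of each gene list that rose (right, red) or fell (left, blue) in untreated zQ175 against untreated WT striatum at 6 months, in percent; dotted lines mark 15.3% and 17.2%, the shares over all genes tested, and the number of members tested stands in brackets. Lists of medium spiny neuron signalling and immediate early genes reach 65.5% to 72.7% of members on the lower side, and beta protocadherins reach 72.7% on the higher side.

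Htt itself (ENSMUSG00000029104, chromosome 5) was measured first, with both alleles counted together. It stood at 119.9, 124.5 and 138 CPM in zQ175 and at 144.1, 154.3 and 171 CPM in WT. The groups did not overlap, and Htt fell by 0.30 on the log2 scale (-0.30 ± 0.05, adjusted p = 6e-06), to a level 18.6% lower. In the NTC animals, a separate set of 8 per genotype, the value was -0.26 ± 0.05. A separate entry for mutant Htt in the count table summed to 18.49 estimated counts over 7 of 8 zQ175 libraries and was 0 in 8 of 8 WT libraries. Of 21 genes that encode huntingtin or its partners, 7 fell and 2 rose, with a median of -0.03. The number that rose was 4 without WT female replicate 2, without zQ175 female replicate 3 or without zQ175 male replicate 3, 4 in DESeq2 and 5 with length and GC slopes. Rasd2, which encodes the striatal GTPase Rhes, fell (-0.70 ± 0.07, adjusted p = 1.28e-10), as did the transcription cofactor gene Taf4 (-0.26 ± 0.05, adjusted p = 9.44e-06). The 2 that rose were Hap1, which encodes huntingtin-associated protein 1 (0.29 ± 0.08, adjusted p = 0.00225), and Crebbp, the acetyltransferase that is recruited by CREB (0.26 ± 0.05, adjusted p = 8.51e-06).

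Among neuropeptides, the enkephalin precursor fell far more than the dynorphin precursor, and Tac1, the substance P precursor, did not pass. Penk (ENSMUSG00000045573) stood at 473, 504 and 562 CPM in zQ175 and at 1056, 1276 and 1483 CPM in WT, so that the highest zQ175 animal lay well under the lowest WT animal. Its change was -1.29 ± 0.07 (adjusted p = 7.08e-20). Pdyn, the dynorphin precursor of direct pathway neurons, stood at 91.0, 109.5 and 123 CPM in zQ175 and at 123, 139.5 and 153 CPM in WT, groups that met at their edges, and fell by 0.37 on the log2 scale (-0.37 ± 0.10, adjusted p = 0.0024). Tac1 stood at 199, 216 and 241.3 CPM in zQ175 and at 171, 194 and 222 CPM in WT, with wide overlap (0.15 ± 0.08, adjusted p = 0.138). Per transcript length, Tac1 averaged 474 ± 26.4 TPM in zQ175 and 400 ± 37.0 TPM in WT, and Penk 868 ± 38.8 TPM in zQ175 and 1995 ± 195 TPM in WT.

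Receptors through which striatal neurons read dopamine, adenosine, acetylcholine and cannabinoids were lower in zQ175. Of 29 receptor genes tested, 19 fell and 2 rose, with a median of -0.35. The cannabinoid receptor gene Cnr1 stood at 170, 183.9 and 225 CPM in zQ175 and at 333, 398 and 475 CPM in WT (-1.07 ± 0.10, adjusted p = 2e-11). Adora2a, the adenosine receptor of indirect pathway neurons, stood at 226.1, 245 and 264 CPM in zQ175 and at 405, 483 and 584 CPM in WT (-1.003 ± 0.08, adjusted p = 2.66e-14). For both genes every zQ175 animal lay below every WT animal. Of the 4 dopamine receptor genes tested, Drd1 and Drd2 fell. Drd2 stood at 99.2, 109 and 118 CPM in zQ175 and at 163, 183.7 and 217 CPM in WT (-0.79 ± 0.08, adjusted p = 2.2e-11). Drd1 stood at 150.1, 168.3 and 189.3 CPM in zQ175 and at 259.5, 281 and 301 CPM in WT (-0.74 ± 0.07, adjusted p = 7.34e-13). Neither receptor's groups overlapped. Drd5 (-0.29 ± 0.13, adjusted p = 0.0923) and Drd3 (0.11 ± 0.21, adjusted p = 0.734) did not pass. Chrm4, the muscarinic M4 receptor, fell by 0.92, Gpr6, an orphan receptor of indirect pathway neurons, by 0.88 and Hrh3, the histamine H3 receptor, by 0.86 on the log2 scale (SE 0.06 to 0.08). The 2 receptor genes that rose were named after their values were seen: Htr2c, the serotonin 2C receptor (0.73), and Gpr149, an orphan receptor (0.55).

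The cyclic AMP pathway downstream of these receptors fell in most members: of 33 genes tested, 24 fell and 3 rose, with a median of -0.40. Pde10a, the phosphodiesterase that breaks down cyclic nucleotides in medium spiny neurons, stood at 831, 905 and 1071 CPM in zQ175 and at 1704, 1892 and 2125 CPM in WT (-1.06 ± 0.07, adjusted p = 9.06e-18). Adcy5, the main striatal adenylyl cyclase, stood at 960, 1039.4 and 1166 CPM in zQ175 and at 1652, 1925 and 2179 CPM in WT (-0.90 ± 0.06, adjusted p = 2.4e-16). Ppp1r1b, which encodes the phosphatase inhibitor DARPP-32, stood at 1260, 1449 and 1607 CPM in zQ175 and at 2261, 2809 and 3117 CPM in WT (-0.91 ± 0.08, adjusted p = 5.77e-13). In each of the 3 genes all zQ175 animals lay below all WT animals. The regulator of G protein signalling Rgs14 had the largest change of the list (-1.22 ± 0.07, adjusted p = 1.04e-20), and Rgs9, its striatal relative, fell by 0.81. The cyclic AMP-regulated phosphoproteins Arpp21 and Arpp19 fell by 0.98 and 0.94. Gnal, the stimulatory G protein subunit of the striatum, changed less (-0.24 ± 0.04, adjusted p = 3.67e-05). The 3 that rose, named after their values were seen, were Creb1, the cyclic AMP-responsive transcription factor (0.19), and the protein kinase A subunit genes Prkar1b (0.16) and Prkacb (0.13).

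**Figure D2:**
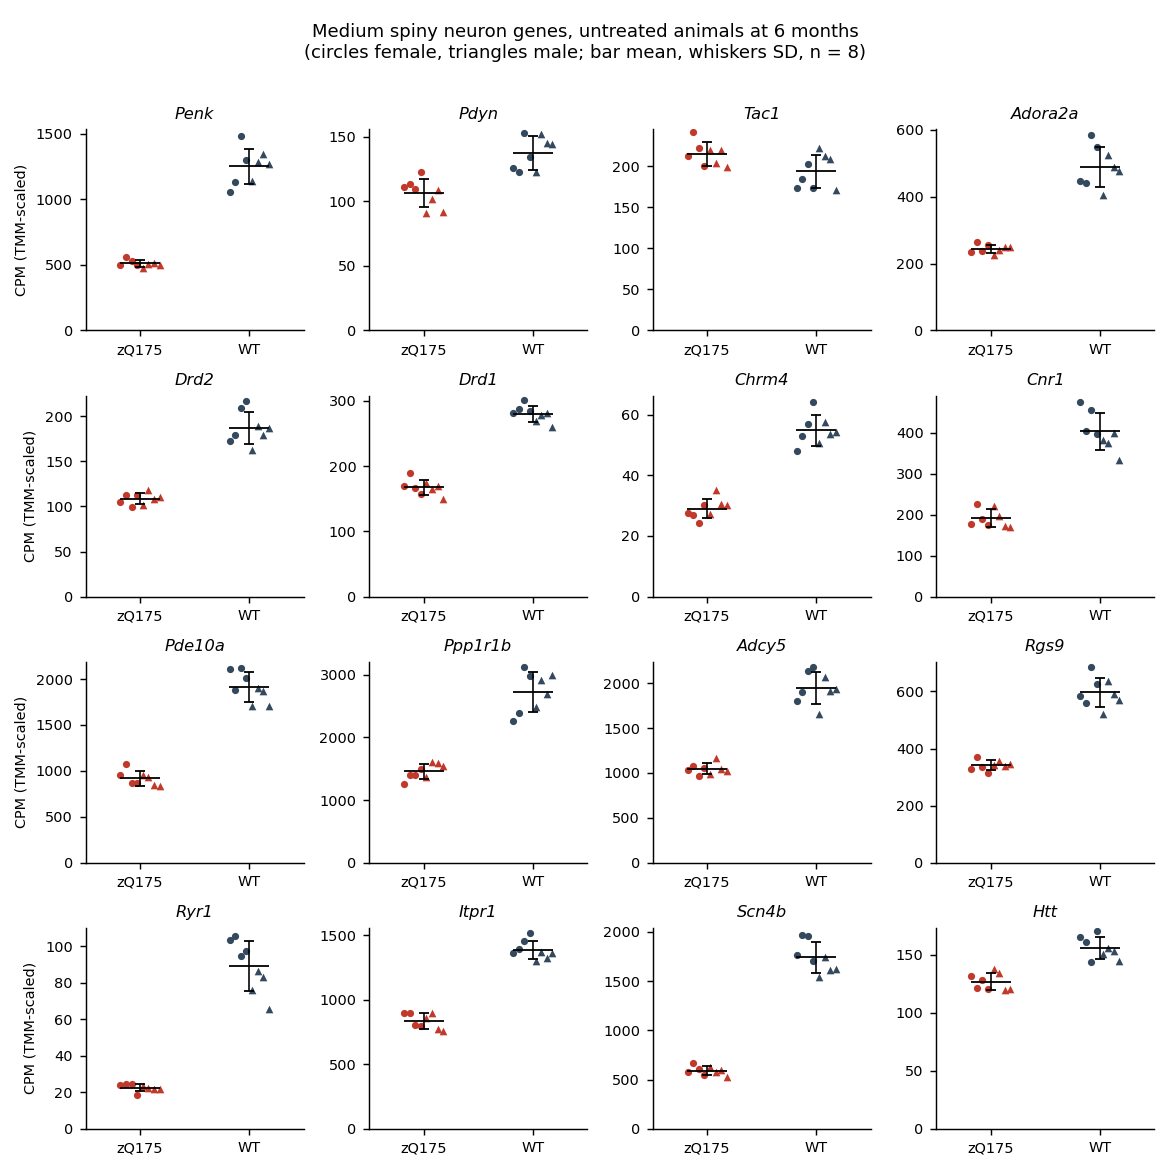
Level of 16 genes in each untreated animal at 6 months in TMM-scaled CPM on linear axes that start at 0, zQ175 (red) left of WT (dark blue), circles for females and triangles for males, with the mean and SD of the 8 animals. Groups are fully separated for Penk, Adora2a, Drd2, Drd1, Pde10a and Ryr1, while Tac1 overlaps, with medians of 216 CPM in zQ175 and 194 CPM in WT.

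Calcium release and calmodulin signalling showed the same direction, with 26 of 38 genes lower and 2 higher (median -0.31). Ryr1, a ryanodine receptor that releases calcium from the endoplasmic reticulum, stood at 18.6, 22.8 and 24.5 CPM in zQ175 and at 65.8, 90.4 and 106 CPM in WT (-1.97 ± 0.07, adjusted p = 1.38e-26), 3.92-fold lower. Itpr1, the inositol trisphosphate receptor, stood at 756, 833 and 901 CPM in zQ175 and at 1303, 1366 and 1520 CPM in WT (-0.73 ± 0.05, adjusted p = 5.57e-18). Both pairs of groups were fully separated. The calmodulin-binding gene Pcp4 and the calcium sensor gene Hpca fell by 0.81 and 0.75, and Itpka, an inositol trisphosphate kinase of dendritic spines, by 0.68. The cation channel gene Trpc7 (0.55) and Camk2d, a calmodulin-dependent kinase subunit (0.36), were the 2 that rose and were named after their values were seen. The adjusted p of Camk2d was 0.0256, against 0.0594 without WT female replicate 3, 0.0565 without WT female replicate 4 and 0.0827 with length and GC slopes.

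Sodium and calcium channel genes moved in both directions, whereas potassium and HCN channel genes that changed mostly fell. Of 30 sodium and calcium channel genes, 12 fell and 7 rose, with a median of -0.06. Scn4b, the sodium channel subunit of resurgent current, stood at 525, 586 and 664 CPM in zQ175 and at 1539, 1723 and 1969 CPM in WT without overlap (-1.56 ± 0.08, adjusted p = 6.28e-21). Scn9a, a voltage-gated sodium channel gene best known from sensory neurons, stood at 9.39, 10.7 and 11.7 CPM in zQ175 and at 4.71, 6.14 and 8.46 CPM in WT, also without overlap, and rose (0.79 ± 0.12, adjusted p = 3.19e-07). Auxiliary calcium channel subunits fell by less, Cacna2d3 by 0.53, Cacng4 by 0.52 and Cacnb2 by 0.48. Of 55 potassium and HCN channel genes, 22 fell and 2 rose (median -0.13). Kcnh4 fell by 0.88, the A-type current regulators Kcnab1 and Kcnip2 by 0.72 and 0.63, the inward rectifier Kcnj4 by 0.63 and the leak channel Kcnk2 by 0.61. The 2 that rose, named after their values were seen, were Hcn3 (0.31) and Kcng1 (0.59).

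Synaptic genes were read by transmitter, and differences between these lists were not tested. Of 25 glutamate receptor genes, 11 fell and 3 rose (median -0.14). The number that rose was 1 without WT female replicate 3, without the 3 libraries with most choroid plexus counts and with length and GC slopes. The kainate receptor gene Grik2 fell by 0.61, and the metabotropic receptor genes Grm4 and Grm5 by 0.57 and 0.42. Of 23 genes of GABA receptors and synthesis, 3 fell and 3 rose (median 0.03), shares of 13% each way that lie under the 17.2% and 15.3% of all genes. Gabrd, the delta subunit of extrasynaptic GABA receptors, stood at 86.2, 89.0 and 91.6 CPM in zQ175 and at 134, 141 and 156.2 CPM in WT (-0.68 ± 0.05, adjusted p = 7.16e-16), with no overlap. Postsynaptic scaffold genes fell in 20 of 33 cases and rose in 2 (median -0.21). Shank3, Dlgap3 and Ppp1r9b, which build and anchor the postsynaptic density and spine actin, fell by 0.82, 0.67 and 0.65, and Homer1, a scaffold whose short form is activity-induced, by 0.71. Dlg1 (0.10) and Shank2 (0.21), scaffold genes of the same families, were the 2 that rose and were named after their values were seen. The adjusted p of Dlg1 was 0.0242, against 0.058 without WT female replicate 2 and 0.115 with length and GC slopes.

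Cell identity markers were then read by compartment. Of 10 indirect pathway markers, 7 fell and 0 rose (median -0.65). Upb1, which encodes beta-ureidopropionase, showed the largest change of that list and stood at 1.06, 1.48 and 1.72 CPM in zQ175 and at 3.02, 3.76 and 4.32 CPM in WT (-1.40 ± 0.14, adjusted p = 2.99e-11). Of 11 direct pathway markers, 5 fell and 2 rose (median 0.02). The 2 that rose were developmental transcription regulators, Eya1 (0.39 ± 0.08, adjusted p = 1.16e-04) and Isl1 (0.27 ± 0.07, adjusted p = 0.00113). The difference between the 2 lists was not tested. Of 12 striosome markers, 5 fell and 1 rose (median -0.10). Kremen1, a Wnt pathway receptor, fell by 0.51 and Rasgrp1, a Ras activator of striosomes, by 0.30. Col11a1, a collagen gene, rose (0.73 ± 0.21, adjusted p = 0.00613), but had an adjusted p of 0.0745 without the 3 libraries with most choroid plexus counts.

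Transcription factors of striatal development changed in part, with 8 of 29 lower and 3 higher (median 0.02). Rxrg, a retinoid X receptor, fell by 0.88 and Rarb, a retinoic acid receptor that pairs with it, by 0.54. Bcl11b, which specifies medium spiny neurons, stood at 276, 308 and 333 CPM in zQ175 and at 366, 419.8 and 462 CPM in WT (-0.44 ± 0.06, adjusted p = 6.4e-08). Foxp1, a forkhead factor of the same cells, stood at 247, 286 and 316 CPM in zQ175 and at 332, 368 and 402 CPM in WT (-0.38 ± 0.06, adjusted p = 9.14e-07). Neither factor's groups overlapped. The 3 that rose were Isl1, given above, and Foxp4 (0.24) and Meis1 (0.29), both named after their values were seen. Interneuron markers fell in 8 of 23 cases and rose in 0 (median -0.13), and 5 fell without the 3 libraries with most choroid plexus counts. Kit and Nos1, of parvalbumin and nitric oxide interneurons, fell by 0.29 and 0.24. Sst (-0.13 ± 0.05, adjusted p = 0.0556) and Pvalb (0.20 ± 0.21, adjusted p = 0.505) did not pass.

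Among genes of mean log2 CPM over 1, those with the largest falls were mostly of low level and lay outside these lists. Gpx6, a glutathione peroxidase, stood at 0.301, 0.631 and 1.04 CPM in zQ175 and at 6.83, 8.09 and 10.6 CPM in WT, 13.1-fold lower with no overlap (-3.71 ± 0.21, adjusted p = 7.71e-20). Mafa, a bZIP transcription factor best known in pancreatic beta cells, stood at 0.328, 0.582 and 1.21 CPM in zQ175 and at 4.10, 5.37 and 6.05 CPM in WT (-3.03 ± 0.19, adjusted p = 2.76e-18). Abhd11os, a long noncoding RNA enriched in striatum, stood at 1.52, 2.38 and 2.71 CPM in zQ175 and at 12.04, 13.3 and 17.2 CPM in WT (-2.59 ± 0.11, adjusted p = 2.61e-24). All 3 were separated between groups, and the value of Abhd11os may include reads of its antisense partner, since the counting is not stated to use strand. Vwa7 (-2.72), Slc4a11, a solute carrier (-2.43), Sec14l3 (-2.15), Phex, an endopeptidase gene on the X chromosome (-2.15), Ddit4l, an inhibitor of mTOR signalling (-1.97), Plk5, a polo-like kinase (-1.70), and Cpne9 (-1.69) completed the 12 largest with Ryr1, above, and Egr2, below. Each of the 12 had 8 of 8 zQ175 animals below all WT animals, as had 911 of all 15716 genes tested. The 12 were chosen in the same animals for the size of their fall, so their separation is a description only.

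Among the same genes the largest rises were smaller; developmental factors of lower level, below, rose by more. Sfmbt2 led, and is described with the Polycomb genes. Abhd1, an alpha/beta hydrolase gene, stood at 4.79, 5.58 and 7.03 CPM in zQ175 and at 1.55, 2.11 and 2.86 CPM in WT (1.38 ± 0.16, adjusted p = 1.65e-09). Tnnt2, cardiac troponin T, stood at 5.67, 6.88 and 7.98 CPM in zQ175 and at 1.76, 2.88 and 3.72 CPM in WT (1.32 ± 0.13, adjusted p = 3.96e-12). Pcdh20, a protocadherin, stood at 16.2, 20.7 and 21.6 CPM in zQ175 and at 7.82, 9.16 and 10.9 CPM in WT (1.12 ± 0.07, adjusted p = 1.22e-17). No zQ175 animal overlapped a WT animal in these 3 genes. AW551984 (1.31), Slc45a3, a solute carrier (1.19), Kazald1 (1.13), A830036E02Rik (1.07), Fam196b (1.05), Klhl14 (1.02) and Rdh12, a retinol dehydrogenase (0.99), were also separated. Dsp, which encodes desmoplakin, was not: it stood at 2.47, 3.10 and 6.22 CPM in zQ175 and at 0.350, 1.06 and 5.39 CPM in WT (1.12 ± 0.41, adjusted p = 0.0305), and its call was lost on leaving out any of 7 single libraries, with an adjusted p of up to 0.0746 without WT female replicate 4. Of all 15716 genes tested, 476 were higher in zQ175 without overlap. The 12 largest rises were chosen in the same animals for their size, so the separation of these genes is a description only.

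Immediate early genes, which neurons switch on within minutes of activity through CREB and serum response factor, were lower in zQ175 as a group. Of 45 tested, 30 fell and 0 rose, with a median of -0.53. Their summed level was 1273, 1444 and 1836 CPM in zQ175 and 1904, 2182 and 2705 CPM in WT, and no zQ175 animal reached the lowest WT animal. Dusp1, Btg2 and Npas4 are shown by the sequence around their start because it holds letters of the motif that CREB binds. Capitals mark the cyclic AMP response element TGACGTCA or its core TGACG on either strand (CGTCA as printed where the core lies on the other strand). Each stretch is 300 bases, from 250 before the start to 50 after it, 5′ to 3′ on the gene's strand, from RefSeq on GRCm38.p6. They lie at chr17:26508423-26508722 (minus strand, Dusp1), chr1:134079106-134079405 (minus strand, Btg2) and chr19:4989922-4990221 (minus strand, Npas4).
Dusp1: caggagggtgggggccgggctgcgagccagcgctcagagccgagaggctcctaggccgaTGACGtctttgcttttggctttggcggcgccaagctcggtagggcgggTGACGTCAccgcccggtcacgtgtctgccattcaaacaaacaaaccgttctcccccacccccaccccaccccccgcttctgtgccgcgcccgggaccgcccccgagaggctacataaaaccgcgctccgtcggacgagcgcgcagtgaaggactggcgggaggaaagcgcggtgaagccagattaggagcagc
Btg2: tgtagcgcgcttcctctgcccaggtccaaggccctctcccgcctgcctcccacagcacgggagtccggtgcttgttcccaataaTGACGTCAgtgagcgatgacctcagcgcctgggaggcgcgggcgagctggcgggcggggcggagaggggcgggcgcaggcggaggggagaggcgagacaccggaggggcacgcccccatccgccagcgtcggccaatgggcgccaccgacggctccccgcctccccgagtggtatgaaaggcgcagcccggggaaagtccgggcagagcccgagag
Npas4: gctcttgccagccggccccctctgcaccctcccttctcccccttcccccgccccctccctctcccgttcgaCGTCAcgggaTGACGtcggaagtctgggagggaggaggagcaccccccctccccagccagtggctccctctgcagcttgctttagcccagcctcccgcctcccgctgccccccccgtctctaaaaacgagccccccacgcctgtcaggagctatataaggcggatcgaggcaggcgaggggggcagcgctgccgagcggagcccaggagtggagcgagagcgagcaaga

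Of the 45 immediate early genes tested, 33 had such a stretch in the table. The full element TGACGTCA was found in 2 of the 33 (6.06%), Dusp1 and Btg2, against 3.19% of the 11830 tested genes with a stretch and 1.88% of all 27025 genes of the table. The core TGACG on either strand, which every full element also holds, was found in 19 of the 33 (57.6%), against 30.3% of tested genes and 21% of the table. The CArG box, the motif of serum response factor, was found in 1 of the 33 (3.03%), against 1.33% of tested genes. Over all tested genes with a stretch, the core was found in 26.8% of those that fell, 31.8% of those that rose and 30.9% of those not called. Among the other lists its share ran from 0% of 6 blood genes to 56% of 25 chaperone genes. Within the early genes, Egr2 and Inhba fell without a core, and Nr4a2 and Nr4a3 held 4 each and did not pass. These are matches of letters in a short window, and any relation to the fall was not tested.

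Dusp1, a phosphatase that switches off MAP kinases, stood at 15.4, 18.8 and 28.4 CPM in zQ175 and at 30.1, 37.7 and 52.3 CPM in WT, without overlap (-0.93 ± 0.17, adjusted p = 2.23e-05). Btg2, an antiproliferative early gene named after its values were seen, changed by -0.69 (adjusted p = 0.00979), with an adjusted p of 0.0576 without the 3 libraries with most choroid plexus counts. Npas4, a neuron-specific bHLH factor, stood at 7.16, 12.7 and 25.6 CPM in zQ175 and at 24.5, 35.6 and 42.7 CPM in WT, where the highest zQ175 animal passed the lowest WT animal (-1.12 ± 0.33, adjusted p = 0.00771). Egr2, a zinc finger factor, showed the largest fall of the list: it stood at 1.76, 2.78 and 5.24 CPM in zQ175 and at 7.04, 14.7 and 25.4 CPM in WT, without overlap (-2.27 ± 0.38, adjusted p = 5.82e-06). Arc, which acts at dendritic spines, stood at 56.1, 84.3 and 134 CPM in zQ175 and at 98.7, 180 and 263 CPM in WT, with overlap (-1.02 ± 0.26, adjusted p = 0.00166). Inhba, the activin subunit, stood at 3.70, 4.18 and 4.96 CPM in zQ175 and at 6.78, 8.15 and 9.77 CPM in WT and had the smallest SE of the 5 largest falls that passed (-0.97 ± 0.10, adjusted p = 9.59e-11). Egr1 fell by 0.75. Fos, the most used marker of neuronal activity, stood at 6.65, 9.60 and 23.4 CPM in zQ175 and at 9.72, 19.4 and 34.5 CPM in WT and did not pass (-0.79 ± 0.37, adjusted p = 0.103), nor did Bdnf (-0.62 ± 0.47, adjusted p = 0.336). In the NTC animals, 18 of the 45 fell and 2 rose, and the median was -0.30. There Npas4 was at -0.31 (adjusted p = 0.496) and Fos at -0.02, and Egr2 at -1.84 and Inhba at -0.87. No gene passed the test of the difference between untreated and NTC animals.

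**Figure D3:**
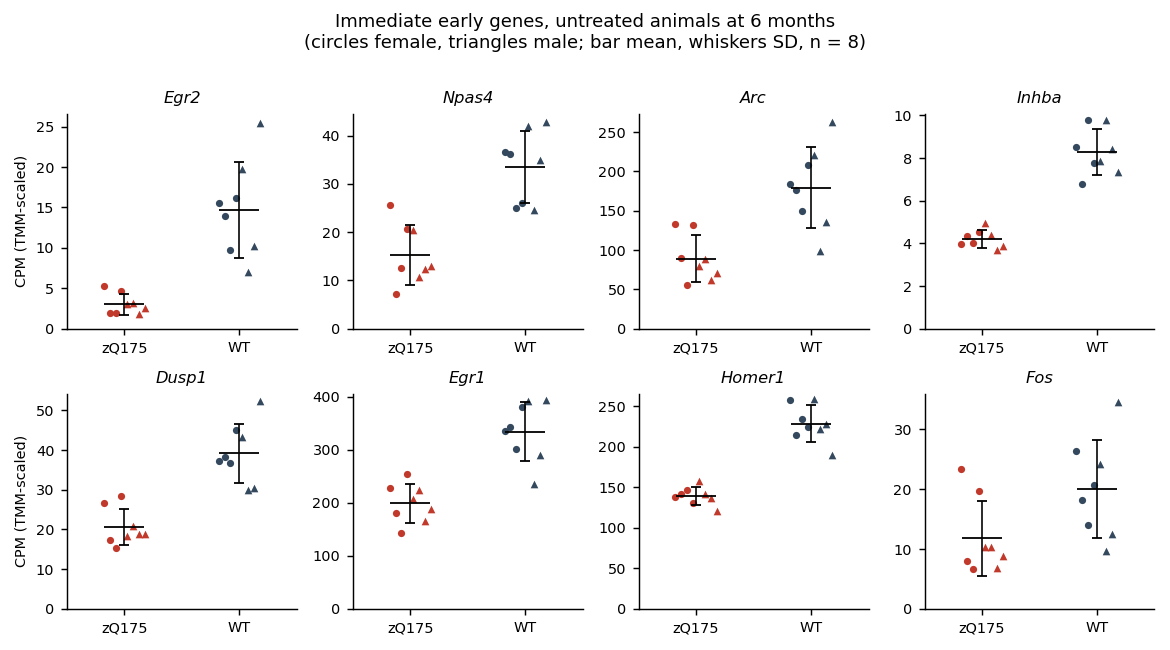
Level of 8 immediate early genes in each untreated animal at 6 months in TMM-scaled CPM on linear axes that start at 0, zQ175 (red) left of WT (dark blue), circles for females and triangles for males, with mean and SD of 8 animals. Egr2, Inhba, Dusp1 and Homer1 are separated between groups, while Fos, with medians of 9.60 CPM in zQ175 and 19.4 CPM in WT, overlaps widely.

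Clock genes, several of which are also induced by cyclic AMP, fell in 10 of 19 cases and rose in 0 (median -0.24). Npas2, the forebrain partner of the clock factor BMAL1, stood at 38.1, 41.2 and 48.6 CPM in zQ175 and at 58.2, 72.5 and 80.4 CPM in WT, without overlap (-0.75 ± 0.06, adjusted p = 7.35e-16). Dbp, a clock output factor, stood at 77.9, 123.7 and 148 CPM in zQ175 and at 141.7, 204 and 236 CPM in WT, with a slight overlap (-0.73 ± 0.11, adjusted p = 1.22e-06). Ciart, Per1 and Nr1d1, which feed back on the clock, fell by 0.75, 0.60 and 0.50. No source used here gives the time of day of collection.

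Several developmental transcription factors were detected in every zQ175 animal and were at or near 0 in WT. The list held 150 homeobox and patterning factors, of which 28 had no count in either group and 40 passed the filter on low counts. Counts were higher in zQ175 for 79 of the 150, higher in WT for 36 and equal for 35. Wt1, a zinc finger factor of kidney and gonad development, had 503 counts over the 8 zQ175 animals and 9 over the 8 WT animals, a ratio of 51.3 after scaling (exact 95% interval 26.8 to 112.8, counting error only). Onecut1, a homeobox factor, had 384 counts in zQ175 and 7 in WT, a ratio of 50.3 (24.2 to 126). Shox2, a homeobox factor of limb and heart, had 394 counts in zQ175 and 27 in WT, a ratio of 13.4 (9.06 to 20.6). Each of these was detected in 8 of 8 zQ175 animals, and in 6, 4 and 7 WT animals in the order given. Pou4f1, a POU factor of sensory neurons, had 104 counts in zQ175 and 4 in WT, a ratio of 23.9 (9.04 to 89.2). Hoxc4, of the HOXC cluster, had 91 counts in zQ175 and 1 in WT, a ratio of 83.5 (14.6 to 3334).

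In levels, Wt1 stood at 1.91, 2.87 and 4.30 CPM in zQ175 and at 0, 0.0496 and 0.139 CPM in WT, and Onecut1 at 1.66, 2.23 and 2.74 CPM in zQ175 and at 0, 0.0179 and 0.124 CPM in WT. No WT animal reached the lowest zQ175 animal in any of the 5 genes. These 5 passed the filter only through the zQ175 group and so had to differ, and all 5 rose, with adjusted p between 1.63e-18 for Wt1 and 3.87e-06 for Shox2. Hoxc6 and Hoxc5, of the same cluster as Hoxc4, did not pass the filter. Hoxc6 had 29 counts in zQ175 and 0 in WT, at least 8.87-fold higher against a floor of 3 counts over the group, and Hoxc5 had 24 in zQ175 and 0 in WT, at least 7.34-fold higher. Both were named after their values were seen. Hoxc4 had 100 counts in NTC zQ175 and 0 in NTC WT, and Wt1 505 in NTC zQ175 and 12 in NTC WT. Of the factors that WT striatum also expressed, Sox11, a factor of immature neurons, stood at 26.8, 29.0 and 32.5 CPM in zQ175 and at 15.4, 16.7 and 23.1 CPM in WT and rose without overlap (0.74 ± 0.09, adjusted p = 1.01e-09). Over the 40 that passed, 11 rose and 4 fell, a description only, since the filter chose some of them by their level in zQ175.

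**Figure D4:**
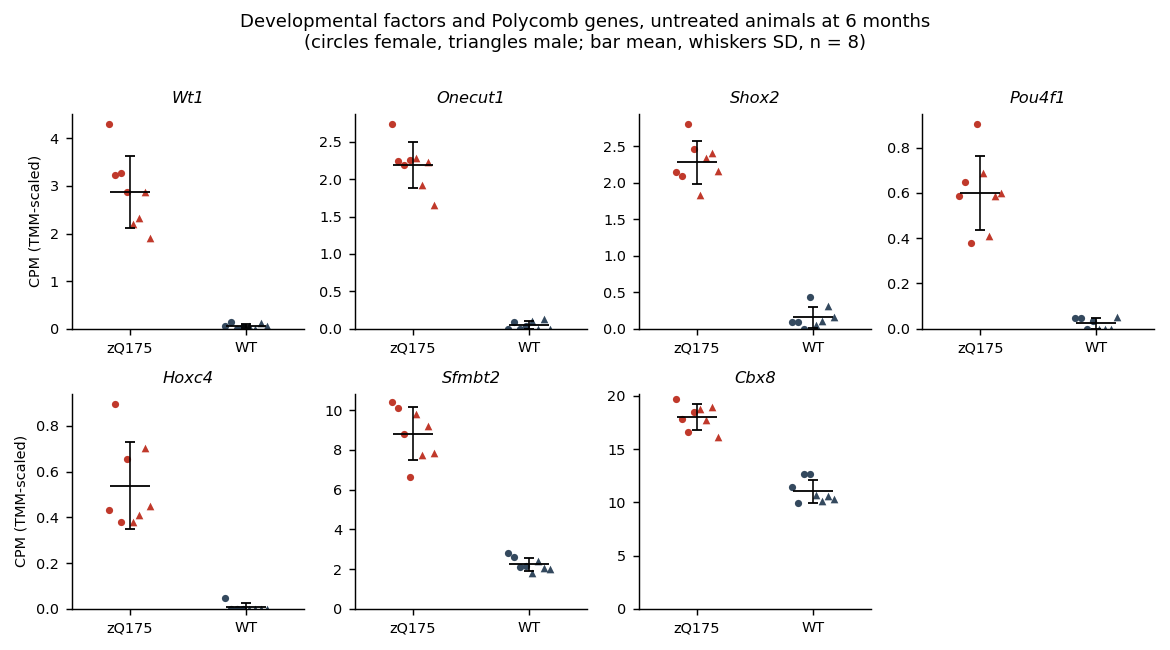
Level of 5 developmental transcription factors (Wt1, Onecut1, Shox2, Pou4f1, Hoxc4) and 2 Polycomb genes in each untreated animal at 6 months in TMM-scaled CPM on linear axes that start at 0, zQ175 (red) left of WT (dark blue), circles for females and triangles for males, with mean and SD of 8 animals. The 8 WT animals lie at or near 0 for the 5 factors, and Sfmbt2 has medians of 9.005 CPM in zQ175 and 2.13 CPM in WT.

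Polycomb complexes keep developmental genes silent through histone methylation and ubiquitination. Of 44 genes of the Polycomb list, 13 rose (29.5%, against 15.3% of all genes). The 7 that fell (15.9%) lie under the 17.2% of all genes, and the median was 0.05. Sfmbt2, a Polycomb repressive protein with MBT repeats, was the gene with the largest rise in the transcriptome among those of mean log2 CPM over 1. It stood at 6.63, 9.005 and 10.4 CPM in zQ175 and at 1.80, 2.13 and 2.80 CPM in WT, 3.94-fold higher (1.98 ± 0.11, adjusted p = 1.16e-20). Cbx8, a chromobox reader of complex PRC1, stood at 16.1, 18.1 and 19.7 CPM in zQ175 and at 9.90, 10.6 and 12.7 CPM in WT (0.71 ± 0.07, adjusted p = 4.73e-12). Both genes were separated between groups. Epop, a PRC2 accessory gene, stood at 9.75, 11.1 and 17.6 CPM in zQ175 and at 18.3, 25.5 and 33.2 CPM in WT and fell (-1.08 ± 0.14, adjusted p = 1.52e-08). Ezh2, the PRC2 methyltransferase, stood at 6.51, 8.25 and 8.96 CPM in zQ175 and at 7.62, 8.06 and 9.21 CPM in WT and did not pass (-0.05 ± 0.07, adjusted p = 0.635).

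Beta protocadherins, neuronal adhesion molecules encoded by a cluster of single-exon genes, rose in 16 of 22 cases and fell in 1 (median 0.45). Pcdhb3 stood at 6.47, 7.19 and 8.92 CPM in zQ175 and at 3.45, 4.31 and 4.91 CPM in WT (0.82 ± 0.08, adjusted p = 7.68e-12). Pcdhb2 stood at 2.36, 3.33 and 3.83 CPM in zQ175 and at 1.23, 1.79 and 2.18 CPM in WT (0.92 ± 0.13, adjusted p = 9.76e-08). Both were separated, as were Pcdhb21 and Pcdhb12, which rose by 0.76 and 0.70. Pcdhb8 was the 1 that fell (-0.60), named after its values were seen. Members of the cluster are close in sequence, and how the estimated counts split shared reads among them is uncertain. Among 13 neuronal long noncoding RNAs, 6 rose and 2 fell (median 0.15), and 3 rose without the 3 libraries with most choroid plexus counts. Meg3, Rian and Mirg, which lie in a row in an imprinted cluster, rose by 0.43, 0.26 and 0.49, and reads of overlapping transcripts there cannot be told apart without strand. Pantr1 (-0.20), named after its values were seen, fell with Abhd11os.

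Most astrocyte markers fell. Of 24 astrocyte markers, 15 fell and 1 rose (median -0.19). The summed level of the list ran from 7269 to 7560 CPM in zQ175 and from 8520 to 9246 CPM in WT. Slc1a2, the glial glutamate transporter, stood at 1607, 1856 and 2008.8 CPM in zQ175 and at 2133, 2279 and 2344 CPM in WT, without overlap (-0.32 ± 0.06, adjusted p = 1.07e-05). Glul, glutamine synthetase, and Slc4a4, a bicarbonate transporter, fell by 0.36 and 0.34. Crym, a thyroid hormone-binding protein of striatal astrocytes, fell by 0.48. S100b was the 1 that rose (0.41 ± 0.07, adjusted p = 3.38e-06). Gfap, the filament gene used to mark reactive astrocytes, stood at 98.9, 114.8 and 171 CPM in zQ175 and at 87.96, 116 and 134 CPM in WT (0.07 ± 0.12, adjusted p = 0.721). Of 18 reactive astrocyte genes, 4 fell (22.2%, against 17.2% of all genes) and 1 rose (5.56%, against 15.3%). Among them were S100a10 (-0.57) and Serpina3n (0.40). In the NTC animals 2 of the 18 fell and 1 rose.

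Microglial markers fell by small amounts where they fell. Of 22 markers, 6 fell and 1 rose (median -0.11), and 3 fell in the fit without a filter on low counts. Csf1r, the receptor microglia need to survive, fell by 0.17 and Cx3cr1, the fractalkine receptor, by 0.14. Sall1, a microglial identity factor, was the 1 that rose (0.11, adjusted p = 0.0397) and was named after its values were seen. Its call was lost on leaving out any of 9 single libraries, with an adjusted p of up to 0.104 without zQ175 male replicate 2. Aif1 did not pass (-0.10 ± 0.11, adjusted p = 0.511). Of 20 genes of activated microglia, 3 fell and 0 rose, and the 15% that fell lies under the 17.2% of all genes. The shared lipid carrier gene Apoe fell by 0.24, Axl by 0.16 and Ctsb by 0.12. Axl, a phagocytic receptor, had an adjusted p of 0.0608 without the 3 libraries with most choroid plexus counts. Of 15 complement genes, 5 fell and 0 rose, led by Cd59a, an inhibitor of the membrane attack complex, which stood without overlap at 4.50, 8.43 and 10.8 CPM in zQ175 and 11.5, 13.1 and 24.1 CPM in WT (-0.79 ± 0.17, adjusted p = 0.000308). C4a also fell (-0.72), but it is a near copy of C4b and the split of their reads is uncertain. Of 27 interferon response genes, 4 fell and 1 rose, shares of 14.8% and 3.7% that lie under those of all genes. In the NTC animals 0 fell and 4 rose. In untreated animals 0 fell without the 3 libraries with most choroid plexus counts or with length and GC slopes. The number that fell was 2 without any of 7 single libraries and 7 in the fit of the 16 untreated libraries alone. Of 24 myelin genes, 8 fell and 1 rose (median -0.10), and 4 rose with length and GC slopes. Mobp and Mal, of compact myelin, fell by 0.35 and 0.33, Mbp did not pass (-0.14 ± 0.06, adjusted p = 0.0766), and Opalin rose (0.20, adjusted p = 0.0422), named after its values were seen. The call of Opalin was lost on leaving out any of 10 single libraries, with an adjusted p of up to 0.16 without zQ175 male replicate 4. Of 15 oligodendrocyte precursor genes, 1 rose and 2 fell (median -0.04), shares of 6.67% and 13.3% that lie under those of all genes. The number that fell was 4 without zQ175 female replicate 1 and with length and GC slopes. Enpp6, the 1 that rose and a marker of newly forming oligodendrocytes, stood at 16.4, 18.1 and 19.1 CPM in zQ175 and at 10.4, 11.5 and 14.1 CPM in WT without overlap (0.58 ± 0.08, adjusted p = 6.23e-08).

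Vascular genes were lower. Of 24 endothelial genes, 15 fell and 0 rose (median -0.26), and of 15 mural genes, 8 fell and 0 rose (median -0.22). Without the 3 libraries with most choroid plexus counts, 7 endothelial and 5 mural genes fell. The blood genes that were summed ran from 187 to 298 CPM in zQ175 and from 253 to 530 CPM in WT. The part of these in the vascular result was not tested. Pecam1, an endothelial adhesion molecule, changed by -0.31 ± 0.06 (adjusted p = 4.93e-05), Esam by -0.34 and Ly6c1 by -0.34, and Tagln, of smooth muscle, by -0.66 ± 0.12 (adjusted p = 1.8e-05). No gene of the choroid plexus list passed in edgeR's quasi-likelihood test, with 0 at an unadjusted p under 0.05 and 0 called by DESeq2, and its median was -0.81. Of lists that would mark neighbouring tissue, 1 of 20 cortical genes rose (Cux2, 0.36), 1 of 13 thalamic and pallidal genes fell (Synpo2, -0.59) and 1 of 15 meningeal genes fell (Cemip, -0.32). The cortical list had a median of -0.30, and its sum reached 890 CPM in WT female replicate 1 and 977.8 CPM in WT male replicate 1. The highest zQ175 animal had 763.2 CPM, with group medians of 683.8 CPM in zQ175 and 670 CPM in WT. Of 6 blood genes, 3 fell. The number was 0 without WT female replicate 2, without zQ175 male replicate 1, without zQ175 male replicate 2 and in the fit with no filter on low counts. It was also 0 without the 3 libraries with most choroid plexus counts. It was 1 without any of 8 other single libraries and 5 in the fit of the 16 untreated libraries alone.

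Metabolic, proteostasis and stress genes were read against the 15.3% of all genes that rose and the 17.2% that fell, and differences between these lists were not tested. Of 28 cholesterol genes, 7 fell (25%) and 4 rose (14.3%). Cyp46a1, the neuronal enzyme that clears cholesterol from brain, fell by 0.44, the sterol regulators Insig1 and Srebf2 by 0.40 and 0.32 and the synthesis gene Msmo1 by 0.33. The 4 that rose were the synthesis genes Pmvk (0.19), Mvk (0.20) and Tm7sf2 (0.30) and the exporter gene Abca1 (0.21), named after their values were seen. The call of Mvk was lost on leaving out any of 11 single libraries, with an adjusted p of up to 0.0968 without WT male replicate 2. Of 52 nuclear genes of the respiratory chain, 5 rose (9.62%) and 3 fell (5.77%), with a median of 0.02. Leaving out 1 library gave 1 to 5 that fell, 3 rose without any of 6 single libraries, and in the fit with length and GC slopes 11 fell. None of the 13 mitochondrially encoded genes passed in edgeR's quasi-likelihood test, with 3 at an unadjusted p under 0.05 and 0 called by DESeq2 (median -0.06), whereas all 13 fell in that fit with slopes and 2 fell without WT female replicate 4 or without zQ175 female replicate 3. Of 38 proteasome genes, 4 rose (10.5%) and 0 fell. The number that rose was 8 without WT male replicate 1 and 9 with a block for animals of the same number and sex. The number that fell was 2 with that block and 2 without WT female replicate 2. Those that rose were led by the activator subunit Psme1, which stood at 27.8, 31.2 and 34.9 CPM in zQ175 and at 21.1, 22.7 and 24.9 CPM in WT (0.45 ± 0.05, adjusted p = 4.94e-11), and by Psmb10, an immunoproteasome subunit (0.29), and Psme2, partner of Psme1 (0.18). Of 32 chaperone genes, 6 rose (18.8%) and 3 fell (9.38%), among them Hspa8, the constitutive Hsc70 (0.18), and Hsp90b1, of the endoplasmic reticulum (-0.23). Of 28 autophagy genes, 5 fell (17.9%) and 3 rose (10.7%), with Atg12, of the conjugation machinery, at -0.20 and Ulk1, the initiating kinase, at 0.15; with length and GC slopes 10 fell and 8 rose. Of 25 stress and p53 target genes, 8 fell (32%) and 2 rose (8%), and 5 rose with length and GC slopes. Cdkn1a, the cell cycle inhibitor p21, stood at 7.002, 8.04 and 8.40 CPM in zQ175 and at 10.3, 13.8 and 18.6 CPM in WT, without overlap (-0.81 ± 0.12, adjusted p = 1.12e-06), and Bbc3, a pro-apoptotic target of p53, fell by 0.55. Mdm2 (0.12) and the serine synthesis gene Psat1 (0.23) were the 2 that rose, named after their values were seen.

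DNA mismatch repair acts on expanded CAG repeats, and the list of its genes and others tied to repeat instability held 6 of 16 that rose and 0 that fell, with a median of 0.11. Rrm2b, a ribonucleotide reductase subunit, rose by 0.29, and of the repair genes proper Msh6 rose by 0.20 and Mlh3 by 0.13. Of 22 genes of trophic factors and their receptors, 10 fell and 0 rose (median -0.20). Nrtn, which encodes the trophic factor neurturin, stood at 1.79, 2.35 and 2.996 CPM in zQ175 and at 3.83, 5.60 and 7.07 CPM in WT (-1.24 ± 0.17, adjusted p = 1.29e-07). The sorting receptor genes Sorcs2 and Sort1, which bind neurotrophin precursors, fell by 0.56 and 0.28.

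The genotype effect was then set against separate animals. Many of the NTC animals shared the first number of the library name with untreated animals of their own genotype. None shared it with untreated animals of the other genotype. The NTC and untreated sets are thus not fully separate in whatever that number marks. Among 8 zQ175 and 8 WT animals given NTC siRNA, 2504 genes (15.9%) rose and 2905 (18.5%) fell. Of the genes that rose in untreated animals, 1713 (71%, or 68.4% of those that rose under NTC) also rose under NTC, and of those that fell, 2160 (79.7%, or 74.4% of those under NTC) also fell. No gene called in both went in opposite directions. With edgeR's quasi-likelihood test, 0 genes passed for a difference between the untreated and NTC effects, with 583 at an unadjusted p under 0.05, and DESeq2 also called 0. Penk was at -1.29 untreated and -1.37 under NTC, Gpx6 at -3.71 and -3.75, and Sfmbt2 at 1.98 and 1.97.

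**Figure D5:**
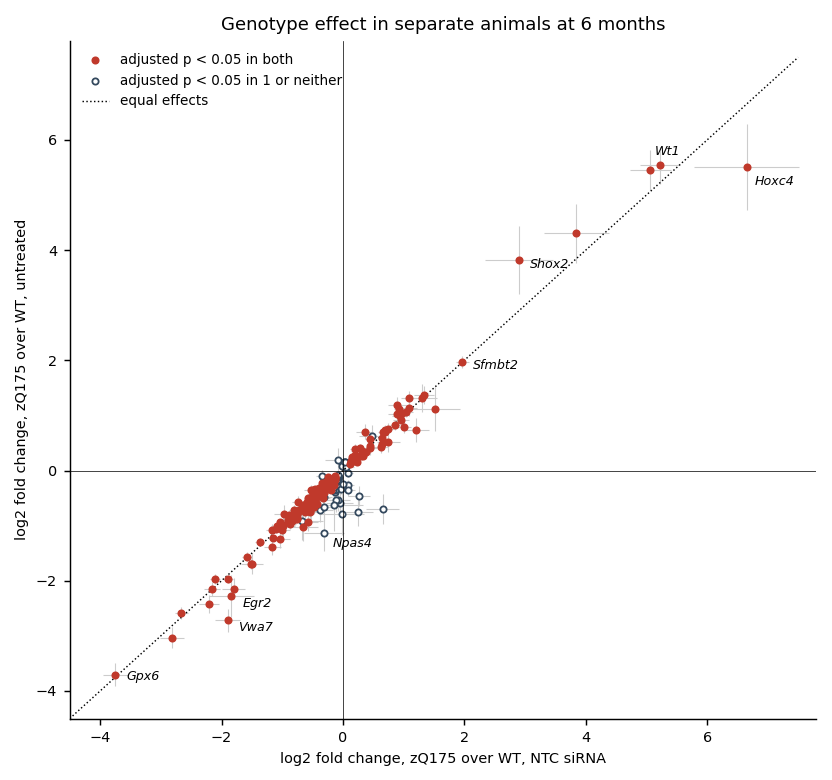
Genotype effect (log2 fold change of zQ175 over WT, with SE) of 227 named genes in untreated animals (vertical) against that in separate NTC animals (horizontal) at 6 months; red points passed in both sets and open points in 1 or neither. Most of the points lie along the line of equal effects, from Gpx6 at -3.71 untreated and -3.75 under NTC to Hoxc4, whose WT groups held 1 count untreated and 0 under NTC, so that its fitted position depends on the prior count, while Npas4 was at -1.12 untreated and -0.31 under NTC.

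The sexes were compared with 4 animals per sex and genotype. Among females, 1171 genes rose and 1706 fell, and among males 1086 rose and 1462 fell. For a difference between sexes 0 genes passed in edgeR's quasi-likelihood test, with 384 at an unadjusted p under 0.05, and 0 in DESeq2. Penk was at -1.25 ± 0.10 in females and -1.33 ± 0.10 in males, and Ryr1 at -2.13 ± 0.10 in females and -1.80 ± 0.10 in males. Against the 16 untreated zQ175 and 16 untreated WT animals collected at 10 months, 230 of 16295 genes (1.41%) had a genotype effect that differed from that at 6 months. Of these, 99 had a more positive and 131 a more negative effect at 6 months. Age, cohort and collection cannot be told apart in this comparison. Ryr1 had fallen less by 6 months (-1.97) than at 10 months (-2.61), a difference of 0.64 (adjusted p = 1.77e-04). Cbx8, whose rise was smaller at 6 months, differed by -0.38 (adjusted p = 0.0291).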

How the data were processed

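RNA of dissected striatum was made into libraries with polyA selection, per the labels' protocols. The authors deposited expected counts per gene estimated with RSEM on GRCm38, per the submitters' processing notes, and no source used here gives the RSEM version or the strand setting. The deposited second table was read as TPM, because each of the 16 columns used sums to 1000000, and served only to compare levels between genes. Of nonzero expected counts, 78.4% were whole (within 1e-9); all were rounded. Entries other than mouse genes, 5.91e-06% of the counts, were not tested.

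The 48 libraries of the 6 groups collected at 6 months (strategy 2[4]6) were fitted together with edgeR 4.0.16 (R 4.3.3): filterByExpr by group, TMM scaling, robust quasi-likelihood F test, sex as a term, Benjamini-Hochberg adjustment over all 15716 genes tested, called at an adjusted p under 0.05. The sexes were fitted as group by sex means, and the contrast with 10 months used all 143 libraries. DESeq2 1.42.0 and other settings were alternatives. On simulated counts the test was checked before use. Single library measures were compared by exact permutation. Depth ran from 16.39 M to 29.19 M counts, and intervals on summed counts cover counting error only. Genes were named by a rule: Htt, a set list of genes of known role, the 12 largest changes each way (mean log2 CPM over 1, same direction in both sexes) and up to 5 called genes per list with the largest change; some of these genes are not reported here. Members and lists were chosen with earlier results of these data known. Nothing states that the animals of a group came from separate litters, and p-values measure only the spread between these samples.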

Additional observations from a re-analysis of the deposited data

Results flagged for a closer look

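In 31 of 386 groups of 8 animals (1 gene or library measure in 1 genotype), the highest or lowest animal lay apart from the next by more of the group's range than Dixon's 95% bound for 8 samples. Chance alone sets about 1 in 20 groups apart.

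Several of these values fell in the same animals. WT female replicate 2 had the highest choroid plexus sum (4452 CPM, next WT animal 1226) and blood sum (530.3 CPM, next 341.4). It was also highest among WT animals for Cd59a (24.07 CPM, next 14.97), Dsp (5.389 CPM), Scn9a (8.455 CPM) and Htr2c (88.55 CPM) and lowest for Hspa8 (1449 CPM) and Prkar1b (321.9 CPM). Among zQ175 animals, male replicate 1 had the highest choroid plexus sum (1513 CPM, next 591.4) and the lowest Bbc3 (3.164 CPM). Male replicate 2 of zQ175 was highest for Hrh3 (103.5 CPM), Shank3 (361.7 CPM), Epop (17.57 CPM) and Sorcs2 (93.32 CPM), genes that are higher in WT, and lowest for Pcdh20 (16.17 CPM), which is lower in WT. Male replicate 4 of zQ175 was highest for the myelin genes Mbp (5399 CPM), Mal (365.2 CPM) and Opalin (55.31 CPM) and for Serpina3n (8.725 CPM).

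The other values were single. In zQ175, Ryr1 was lowest in female replicate 4 (18.59 CPM), Kcnab1 and Eya1 highest in female replicate 2 (345.5 and 13.92 CPM), S100a10 highest in female replicate 3 (9.355 CPM), Psmb10 lowest in female replicate 1 (10.17 CPM) and Psme2 highest in male replicate 3 (22.56 CPM). In WT, Pcp4 was highest in female replicate 3 (1238 CPM), Col11a1 highest in female replicate 1 (12.19 CPM), Slc4a4 lowest in male replicate 1 (260 CPM), Opalin highest in male replicate 4 (43.37 CPM) and Mirg lowest in the same animal (11.65 CPM). WT female replicate 4 had the deepest library, with 29.19 M counts against 22.13 M in the next.

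The genotype effect of 5 named genes differed between 6 and 10 months in edgeR's quasi-likelihood test. The difference, 6 minus 10 months on the log2 scale, was 0.64 for Ryr1 (adjusted p = 1.77e-04), -0.57 for Kazald1 (0.0481), -0.38 for Cbx8 (0.0291), -0.20 for Prkar1b (0.0397) and -0.14 for Ctsb (0.0398). The entry for mutant Htt, outside the genes tested, summed to 18.49 estimated counts in untreated zQ175 and 0 in untreated WT.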

How the results depend on the processing

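Of the named genes called in zQ175 against WT, 9 lost the call under at least 1 of 26 alternatives and 0 changed direction. Of genes not called, Gfap (0.07) reversed to -0.029 without zQ175 male replicate 4 and ran up to 0.110 without other single libraries. Leaving out 1 library at a time gave 2188 to 2491 genes higher and 2393 to 2703 lower in zQ175. The other alternatives gave 1924 to 2794 higher and 2299 to 3006 lower, the lowest count of genes higher without the 3 libraries with most choroid plexus counts (with 2310 lower) and the lowest count of genes lower with no filter on low counts (with 2492 higher). That set of 3 libraries and the range of library numbers were chosen after seeing the data. With a replicate block (same number and sex), 2794 genes were higher and 3006 lower; same-numbered animals correlated at 0.00591 to 0.258 in their deviations from the group means, so the numbers are not read as pairs. The number of genes whose genotype effect differed between 6 and 10 months fell to 77 with no filter on low counts, against 230 and 302 with DESeq2; the cause was not tested. Among lists, microglia markers had 3 lower with no filter and 10 with the replicate block. Of 374 group means recomputed without TMM factors, 7 moved by more than 1 SD. Genes at the lowest levels rest on few counts per library.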

Other observations

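Genes of the X chromosome were higher in zQ175 more often than autosomal genes, a pattern chosen after its values were seen and not tested. Of 556 X-linked genes tested, 31.3% rose and 8.27% fell, against 14.8% and 17.7% of 15031 autosomal genes, with medians of 0.09 for the X chromosome and 0.001 for autosomes. In the NTC animals 26.3% of X-linked genes rose and 10.3% fell, against 15.6% and 18.9% of autosomal genes. Among females 17.8% rose and 4.32% fell, against 7.12% and 11.2% of autosomal genes, and among males 15.8% rose and 3.6% fell, against 6.61% and 9.58%. At 10 months, 34.1% rose and 15.9% fell, against 25.2% and 23.6% of autosomal genes. With each library's length and GC slopes as terms, 26.3% of X-linked genes rose and 12.4% fell, against 17% and 18.8% of autosomal genes, and the median of X-linked genes was 0.04. In the third of genes with the highest GC content, 22.6% of 84 X-linked genes rose and 10.7% fell, against 9.2% and 24.7% of 5117 autosomal genes. Examples chosen after their values were seen were the adhesion gene Pcdh19, which averaged 28.6 ± 2.77 CPM in zQ175 and 14.7 ± 1.46 CPM in WT (log2 change 0.96 ± 0.10), and the orphan receptor gene Gpr101, which averaged 22.2 ± 3.77 CPM in zQ175 and 11.2 ± 1.82 CPM in WT (SD, n = 8 each; log2 change 0.98 ± 0.14).

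The neighbourhood of Htt on chromosome 5 was read as a description. Within 1 Mb of Htt, 27 genes were tested, of which 5 rose and 9 fell, a share of 51.9%, and 13 (48.1%) were called in the NTC animals. Within 5 Mb the share was 30.2% untreated and 40.5% under NTC, and on all other chromosomes 32.7% untreated and 34.5% under NTC. Zfyve28, at -0.60 Mb from Htt, changed by -0.61, Rgs12, a regulator of G protein signalling at 0.16 Mb, by -0.43, Adra2c, the alpha-2C adrenergic receptor at 0.44 Mb, by -0.68 and Acox3, a peroxisomal oxidase at 0.76 Mb, by 0.28. These 4 genes were chosen after their values were seen. Abhd1, among the largest rises, lies -3.88 Mb from Htt.

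Genes that rose and fell differed in base composition. The median GC content of their transcripts was 47.5% for genes that rose, 52.5% for genes that fell and 49.6% for genes not called. The median exon length was 5087 bases for genes that rose, 4588 for those that fell and 4114 for those not called. These classes also differed in level, with a median log2 CPM of 4.57 for genes that rose, 5.53 for those that fell and 3.89 for those not called. The part of level in the difference in length was not tested. The slope of gene level on GC content, which differed between the zQ175 and WT libraries, was fitted to the levels of these same genes. It is therefore not an observation separate from the difference in GC content, and what underlies that difference was not tested.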
